A study of Mus musculus with 165 samples.

Results

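The 7 genes described here encode the cyclin-dependent kinase inhibitors of the mouse, the small proteins that hold the kinases of the cell cycle in check. They were taken from the count tables of brain and liver by their Ensembl identifiers and make up 7 of the 55471 identifiers listed. The libraries came from male C57BL/6J/Ukj mice, an inbred strain, aged 3, 9, 15, 24 and 28 months, with no treatment, transgene or deletion in any group, and kept only to grow old. Brain RNA was sequenced from 15, 16, 16, 17 and 18 mice at these ages in turn, and liver RNA from 16, 16, 16, 17 and 18, each library from a separate mouse. In all, 82 mice gave both tissues, and the labels place every library in 1 of 3 preparations (preps), each with libraries of every age in both tissues. The ages are separate mice and not repeated samples of the same animals, so the tests set a difference between ages against the spread between mice.

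The inhibitors fall into 2 families. The Cip/Kip family, p21 (Cdkn1a), p27 (Cdkn1b) and p57 (Cdkn1c), binds complexes of cyclins with Cdk2 and other kinases. The Ink4 family, p16Ink4a (from Cdkn2a), p15 (Cdkn2b), p18 (Cdkn2c) and p19Ink4d (Cdkn2d), binds Cdk4 and Cdk6 and keeps cyclin D from activating them, which leaves the retinoblastoma protein free to restrain the E2F factors. Cdkn2a also encodes p19Arf, which is read in another frame and acts on p53 through Mdm2. Cdkn2a is the gene most used as a marker of senescent cells, while p27 and p19Ink4d are known for holding neurons and other resting cells out of the cycle.

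Cdkn2a (ENSMUSG00000044303) lies on chr4:89274471-89294653 of GRCm38, on the minus strand, and has 2 first exons spliced to the same second exon. The first exon of p16Ink4a spans chr4:89281986-89282192 (207 bases) and that of p19Arf spans chr4:89294334-89294653 (320 bases), 12.5 kb apart. The transcripts share 575 bases, 67.5% of the p16Ink4a transcript and 64.2% of the p19Arf transcript, so the single count per gene cannot say which product a read came from. The junctions are shown because only reads over or before them separate the products. Lower case marks the last 20 bases of the first exon and capitals mark the first 20 bases of the shared exon:
p16Ink4a: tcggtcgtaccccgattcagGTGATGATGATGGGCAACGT
p19Arf: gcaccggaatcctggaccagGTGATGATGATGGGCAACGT
Each first exon has a promoter of its own, so a change in the count can come from either one. The RefSeq promoter windows on GRCm38, 250 bases long and ending at the transcript start, held 40 CpG dinucleotides ahead of p19Arf and 7 ahead of p16Ink4a. They are shown here as far as they lie outside annotated exons, 5′ to 3′ on the minus strand, with GC boxes (GGGCGG on either strand) in capitals:
p19Arf promoter, chr4:89294654-89294869: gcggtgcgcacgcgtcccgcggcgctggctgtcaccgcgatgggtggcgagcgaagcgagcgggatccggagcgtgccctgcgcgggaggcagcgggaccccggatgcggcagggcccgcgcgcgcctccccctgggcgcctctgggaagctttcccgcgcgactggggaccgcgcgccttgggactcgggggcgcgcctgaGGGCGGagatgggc
p16Ink4a promoter, chr4:89282193-89282442: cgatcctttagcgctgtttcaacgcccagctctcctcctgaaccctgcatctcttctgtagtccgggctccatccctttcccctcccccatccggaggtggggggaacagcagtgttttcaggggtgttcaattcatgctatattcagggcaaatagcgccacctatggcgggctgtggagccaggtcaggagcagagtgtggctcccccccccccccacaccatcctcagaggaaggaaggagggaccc
The whole p19Arf window held 2 GC boxes, of which 1 lies in the printed bases, and the p16Ink4a window held 0, where 32.7% of 32851 RefSeq windows of this length held at least 1. A match is a description of letters and not a binding site.

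The other members lie as follows on GRCm38 in the GENCODE M21 annotation. Cdkn2b (ENSMUSG00000073802) spans chr4:89306299-89311039 on the minus strand and begins 11.6 kb beyond Cdkn2a. Cdkn2c (ENSMUSG00000028551) spans chr4:109660876-109667189 and Cdkn2d (ENSMUSG00000096472) spans chr9:21288410-21291407, both on the minus strand. Cdkn1a (ENSMUSG00000023067) spans chr17:29090976-29100727 and Cdkn1b (ENSMUSG00000003031) spans chr6:134920401-134925513, both on the plus strand. Cdkn1c (ENSMUSG00000037664) spans chr7:143458339-143461050 on the minus strand. Cdkn1a shares 273 exon bases with AC167363.2 and Cdkn1c shares 625 exon bases with Gm44732, each on the opposite strand, and whether the counting used the strand is not given in the sources used here, so reads of these pairs may not be told apart.

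Brain libraries held 1.15e+07 to 7.34e+07 counts and liver libraries 5.82e+06 to 5.75e+07. Neuronal markers (8 genes) summed to 3572 to 7672 counts-per-million (CPM, scaled by TMM library sizes) in brain and 6.72 to 55.5 in liver, and hepatocyte markers without Ttr (9 genes) to 14.2 to 93.2 in brain and 28526 to 130470 in liver. The brain libraries of 28-month mouse 15 and 24-month mouse 13 stood apart, with median correlations to the other brain libraries of 0.852 and 0.941 against 0.990 in general. In liver, 24-month mouse 13 (0.915) and 28-month mouse 9 (0.922) stood apart, against 0.978. All 7 members passed the filter on low counts in both tissues, among 18711 genes tested in brain and 15579 in liver. Cdkn2a was near the floor, 3 counts per library, at 3 months and passed that filter through the older ages, where it is high.

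In the liver, Cdkn2a was higher at every later age than at 3 months, and 3 further members rose by 28 months: Cdkn1c, Cdkn2d and, narrowly, Cdkn2b. At 28 against 3 months 4 of 7 members were called higher and 0 lower, in a tissue where 61.9% of all genes were called and 31.9% were called higher, so that a count of 4 says little about the family as such. In the brain 1 of 7 members rose, Cdkn2a, and 2 fell, Cdkn1b and Cdkn2c, where 28.3% of all genes were called, 16.3% higher and 12% lower. A call here is an adjusted p under 0.05 in edgeR's quasi-likelihood test with Benjamini-Hochberg adjustment over all genes of the tissue, and a change is a log2 fold change ± its standard error (SE). In bulk tissue, fewer cells of a type and less RNA per cell cannot be told apart.

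**Figure D1:**
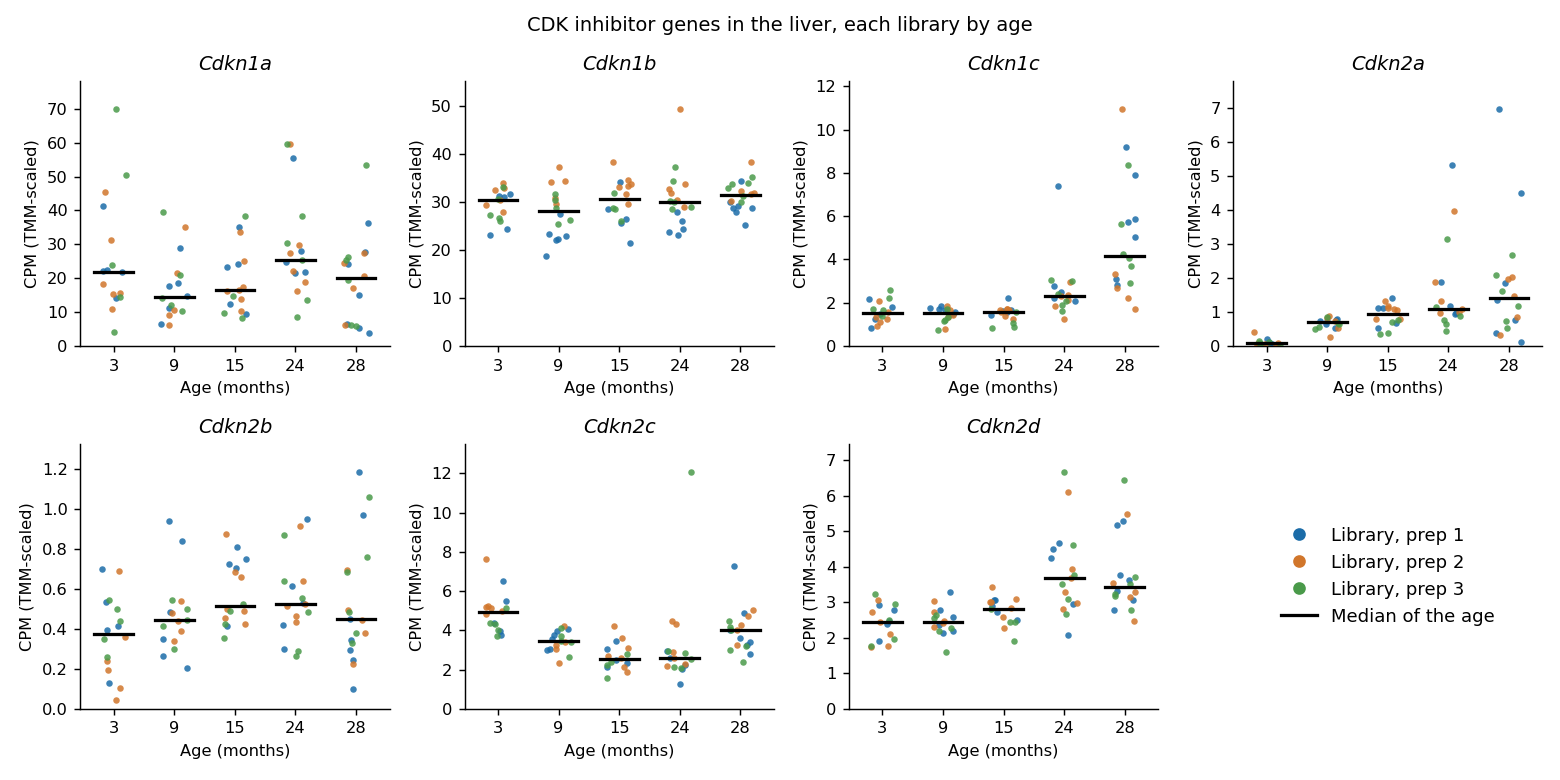
CPM (linear axes from 0, one scale per gene) of the 7 inhibitors in each liver library by age in months, with 1 point per mouse, coloured by prep, and a black line at the median of each age. The Cdkn2a medians go from 0.0807 at 3 months to 1.43 at 28 months and those of Cdkn1c from 1.52 to 4.14, while the points of Cdkn1a spread from 3.80 to 69.8 and overlap at every age.

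Liver Cdkn2a, which encodes p16Ink4a and p19Arf, had a lowest, median and highest level of 0, 0.0807 and 0.42 CPM at 3 months. At 9 months these were 0.272, 0.708 and 0.882 CPM, at 15 months 0.359, 0.942 and 1.40, and at 24 months 0.443, 1.10 and 5.33. At 28 months they were 0.130, 1.43 and 6.97 CPM. All 17 libraries of 24 months lay above the highest library of 3 months, as did 15 of 16 at 9 months and 15 of 18 at 28 months, so 3 months stood almost apart from the later ages, which overlapped one another widely. At 3 months 11 of 16 libraries held 3 counts or fewer, 2 of them 0 counts. Summed over mice, 53 counts at 3 months gave 0.104 CPM (exact Poisson 95% interval 0.0780 to 0.136) and 1204 counts at 28 months gave 1.75 CPM (1.65 to 1.85), intervals that cover counting error only.

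The increase of liver Cdkn2a over 3 months was 2.65 ± 0.39 (log2) at 9 months (edgeR, adjusted p = 1.7e-06) and 3.04 ± 0.39 at 15 months (edgeR, adjusted p = 1.3e-08). It was 3.90 ± 0.38 at 24 months (edgeR, adjusted p = 1.7e-13) and 3.99 ± 0.38 at 28 months (edgeR, adjusted p = 1.3e-14), a fitted ratio of 15.9. Most of the difference on the log scale was therefore present at 9 months, the first age after 3 months. At 9 months Cdkn2a was the 1 member called, where 4.69% of all genes were called and 1.53% were higher. At 15 months 2 members were called, Cdkn2a higher and Cdkn2c lower, where 7.32% of all genes were called, 3.06% higher and 4.26% lower. From 15 to 24 months it rose by a further 0.87 ± 0.31 (edgeR, adjusted p = 0.0227), a call that was lost without the 2 liver libraries least like the others (0.69, adjusted p = 0.0623), with a weighted limma-voom fit (0.33), with a clock score in the model (0.77) and in each single prep. Fitted within each prep, the change at 28 months was 4.57, 3.40 and 3.92, called in all 3. At 9 months it was 2.91, 2.39 and 2.78, called in none, and at 15 months it was called in prep 2 alone (3.08, with 3.37 and 2.47 in the others).

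Markers of immune cells were also higher in the livers of 28 months. The T cell list summed to 5.58 to 41.8 CPM (median 8.36) at 3 months and 13.1 to 91.8 (median 26.1) at 28 months, and 11 of its 12 genes tested rose. The B and plasma cell list summed to 20.7 to 89.5 CPM (median 42.4) at 3 months and 107 to 1922 (median 237) at 28 months, with 9 of 9 genes higher. Macrophage genes, 12 of 13 higher, went from a median of 457 CPM (388 to 1267) to 1105 (591 to 3228), and neutrophil genes, 8 of 8 higher, from 5.68 (4.75 to 31.6) to 41.5 (11.3 to 741). No gene of these lists was at 0 in all libraries of an age. The highest Cdkn2a library of 28 months, mouse 2, held the highest B and plasma cell sum of its age, 1922 CPM, and the highest Cdkn2a library of 3 months, mouse 12, held that age's highest T cell and macrophage sums, 41.8 and 1267 CPM. The liver of 28 months with the least Cdkn2a, mouse 9, also held sums above the medians of its age, 3228 CPM for macrophages (the highest), 351 for B and plasma cells, 65.6 for T cells and 124 for neutrophils. The highest Cdkn2a liver of 24 months, mouse 5, was above the age median in neutrophil (281 CPM, median 24.99), macrophage (1145, median 811) and B and plasma cell genes (466, median 275) and below it in T cell genes (12.8, median 19.4). That of 15 months, mouse 1, was above the median in T cell (22.5 CPM, median 11.8), B and plasma cell (365, median 210), macrophage (802, median 570) and neutrophil genes (24.2, median 10.4). That of 9 months, mouse 15, lay close to its age's medians, with 12.2 CPM of T cell (median 9.01), 129 of B and plasma cell (median 127), 529 of macrophage (median 511) and 7.30 of neutrophil genes (median 8.00). The part of these cells in the levels of Cdkn2a was not tested.

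Brain Cdkn2a was lower than liver Cdkn2a and was first called at 15 months. Its lowest, median and highest levels were 0.0145, 0.0526 and 0.231 CPM at 3 months, 0, 0.106 and 0.301 at 9 months and 0.0273, 0.190 and 0.308 at 15 months. At 24 months they were 0.158, 0.278 and 0.848 CPM, and at 28 months 0.133, 0.289 and 0.804. All 18 brains of 28 months lay above the median of 3 months and 12 of 18 above its highest library, so the ages overlapped. In 12 of 15 brains of 3 months the gene held 3 counts or fewer. Summed over mice, 37 counts gave 0.0577 CPM (exact Poisson 95% interval 0.0406 to 0.0795) at 3 months and 189 counts gave 0.291 (0.251 to 0.335) at 28 months.

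The change of brain Cdkn2a over 3 months was 1.19 ± 0.35 at 9 months (edgeR, adjusted p = 0.135), which was not a call. It was 1.59 ± 0.33 at 15 months (edgeR, adjusted p = 0.00244), as the 1 member called where 0.871% of all genes were called and 0.524% were higher, and 2.34 ± 0.31 at 24 months (edgeR, adjusted p = 1.9e-08), where 2 members, 1 higher and 1 lower, and 10.1% of all genes were called, 6.19% higher and 3.86% lower. At 28 months it was 2.26 ± 0.31 (edgeR, adjusted p = 1.9e-08), a fitted ratio of 4.80. Between 24 and 28 months no member was called in the brain by edgeR, DESeq2 or limma-voom, with 1 member under an unadjusted p of 0.05, where 1.09% of all genes were called. Within preps the change at 28 months was 1.82, 2.24 and 2.91, and only the second missed the threshold (edgeR, adjusted p = 0.0506). At 15 months the preps gave 1.36, 1.24 and 2.47, called in none, and at 24 months prep 1 missed the threshold (1.84). The highest libraries of 24 and 28 months, mice 13 and 15, are the 2 that stood apart, and without both the change was 2.20 (edgeR, adjusted p = 8.33e-09). They also held the highest macrophage and microglia sums of their ages, 664 and 808 CPM (medians 412 and 406), in a tissue where 9 of 10 genes of that list rose at 28 months, and the part of these cells in brain Cdkn2a was not tested.

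Cdkn2b encodes p15, the inhibitor known to be induced by transforming growth factor beta. In liver its median was 0.376 CPM at 3 months (0.0458 to 0.699), 0.442 at 9 months (0.203 to 0.939), 0.514 at 15 months (0.356 to 0.876), 0.523 at 24 months (0.263 to 0.953) and 0.448 at 28 months (0.0972 to 1.19). The ages overlapped throughout, with single libraries near the floor at both ends. The change was 0.58 ± 0.23 at 24 months (edgeR, adjusted p = 0.0302) and 0.50 ± 0.23 at 28 months (edgeR, adjusted p = 0.0496). The call at 28 months was lost when any of 56 of the 83 libraries was left out in turn, with RLE scaling (adjusted p = 0.0503) and within every prep (0.23, 0.67 and 0.55), and that at 24 months without any of 6 single libraries (3-month mice 5, 6 and 15 and 24-month mice 7, 10 and 13; 0.50 without mouse 13). The call at 24 months was also lost with no filter on low counts (0.56, edgeR adjusted p = 0.0663), without the 2 liver libraries least like the others (0.50, adjusted p = 0.0521) and in preps 1 and 3 (0.36 and 0.30), and was kept in prep 2 (1.05). In brain the median of Cdkn2b stayed between 0.634 and 0.748 CPM at all 5 ages, and the change at 28 months was 0.06 ± 0.12 (95% interval -0.17 to 0.29; edgeR, adjusted p = 0.82). The difference in change between Cdkn2b and Cdkn2a, 11.6 kb away, was not tested.

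Cdkn2c encodes p18, an inhibitor of Cdk4 and Cdk6 known from cells that leave the cycle to differentiate. In liver its lowest, median and highest levels were 3.69, 4.92 and 7.61 CPM at 3 months, 2.31, 3.43 and 4.24 at 9 months and 1.58, 2.53 and 4.21 at 15 months. At 24 months they were 1.27, 2.57 and 12.1 CPM, and at 28 months 2.37, 4.01 and 7.26. The medians were lowest at 15 and 24 months. Below the lowest liver of 3 months lay 10 of 16 livers of 9 months and 15 of 16 of 15 months. So did 14 of 17 livers of 24 months and 8 of 18 of 28 months. The change was -0.51 ± 0.16 at 9 months (edgeR, adjusted p = 0.0509), -0.87 ± 0.16 at 15 months (edgeR, adjusted p = 0.000118) and -0.62 ± 0.16 at 24 months (edgeR, adjusted p = 0.000926). Within preps 1, 2 and 3 it was -0.84, -0.91 and -0.88 at 15 months, called in prep 2 alone, and -1.124, -0.83 and -0.080 at 24 months, not called in prep 3. At 28 months it was -0.29 ± 0.16 (edgeR, adjusted p = 0.10; 95% interval -0.59 to 0.02), so that 0 members were called lower by edgeR, while limma-voom called Cdkn2c lower. One liver of 24 months, mouse 10, had 12.1 CPM where the next had 4.47, and without it the change at 24 months was -0.89. That library also held 647 CPM of neutrophil and 102 CPM of T cell genes, and the highest of 28 months, mouse 9, held 3228 CPM of macrophage genes, the most of its age, and their part in Cdkn2c was not tested. Without mouse 9 the change at 28 months was -0.35 and was called, as it was without mouse 10 of 24 months.

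Brain Cdkn2c had a median of 1.92 CPM at 3 months (1.63 to 3.70), 1.64 at 9 months (0.938 to 2.48), 1.73 at 15 months (1.06 to 2.21), 1.74 at 24 months (1.35 to 2.23) and 1.41 at 28 months (0.230 to 2.56). In 16 of 18 brains of 28 months it was below the lowest brain of 3 months, although the ranges overlapped through 2 brains. It fell by 0.53 ± 0.11 on the log2 scale at 28 months (edgeR, adjusted p = 0.000197), with -0.58, -0.52 and -0.49 within preps, of which the first was called. The lowest library, mouse 15 of 28 months, held 2 counts, and without the 2 libraries that stood apart the change was -0.49 (edgeR, adjusted p = 0.000111).

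Cdkn2d encodes p19Ink4d, the Ink4 protein typical of resting neurons. In liver its lowest, median and highest levels were 1.74, 2.46 and 3.25 CPM at 3 months, 1.60, 2.45 and 3.29 at 9 months and 1.903, 2.82 and 3.44 at 15 months. At 24 months they were 2.07, 3.68 and 6.67 CPM, and at 28 months 2.48, 3.43 and 6.44. The livers fall into an early level up to 15 months and a higher one after it, with 11 of 17 livers of 24 months and 12 of 18 of 28 months above the highest of 3 months. Cdkn2d rose by 0.67 ± 0.12 at 24 months (edgeR, adjusted p = 2.2e-06) and 0.64 ± 0.12 at 28 months (edgeR, adjusted p = 2.3e-06), a fitted ratio of 1.55, and by 0.61, 0.64 and 0.61 within preps, called in each. At 24 months the preps gave 0.55, 0.71 and 0.71, of which the first was not called. The step from 15 to 24 months was 0.49 ± 0.12 (edgeR, adjusted p = 0.000733), a call in no prep alone (0.37, 0.37 and 0.77), in a comparison where 3 members rose and 36% of all genes were called, 21.6% higher. The highest livers, mouse 10 of 24 months and mouse 3 of 28 months, held 647 and 741 CPM of neutrophil genes. The median of 28 months was 41.5 CPM, and that of 24 months is given with liver Cdkn2a. The part of neutrophils in Cdkn2d was not tested.

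In brain, Cdkn2d was steady. Its medians lay between 40.3 and 41.2 CPM at all 5 ages and its lowest libraries between 33.5 and 35.9. The brains of 24-month mouse 13 (79.9 CPM, next 50.9) and 28-month mouse 15 (103 CPM, next 44.4) were the exceptions, and these are the 2 that stood apart. The change at 28 months was 0.08 ± 0.08 (95% interval -0.08 to 0.24; edgeR, adjusted p = 0.468), and -0.03 without mouse 15 of 28 months. That brain also had the lowest Cdkn1b and Cdkn2c of its age, a neuronal marker sum of 3572 CPM, the lowest of all brains, and a sum of glucocorticoid-response genes of 3198 CPM where the age median was 670. The part of neuronal content and of that response in these levels was not tested.

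**Figure D2:**
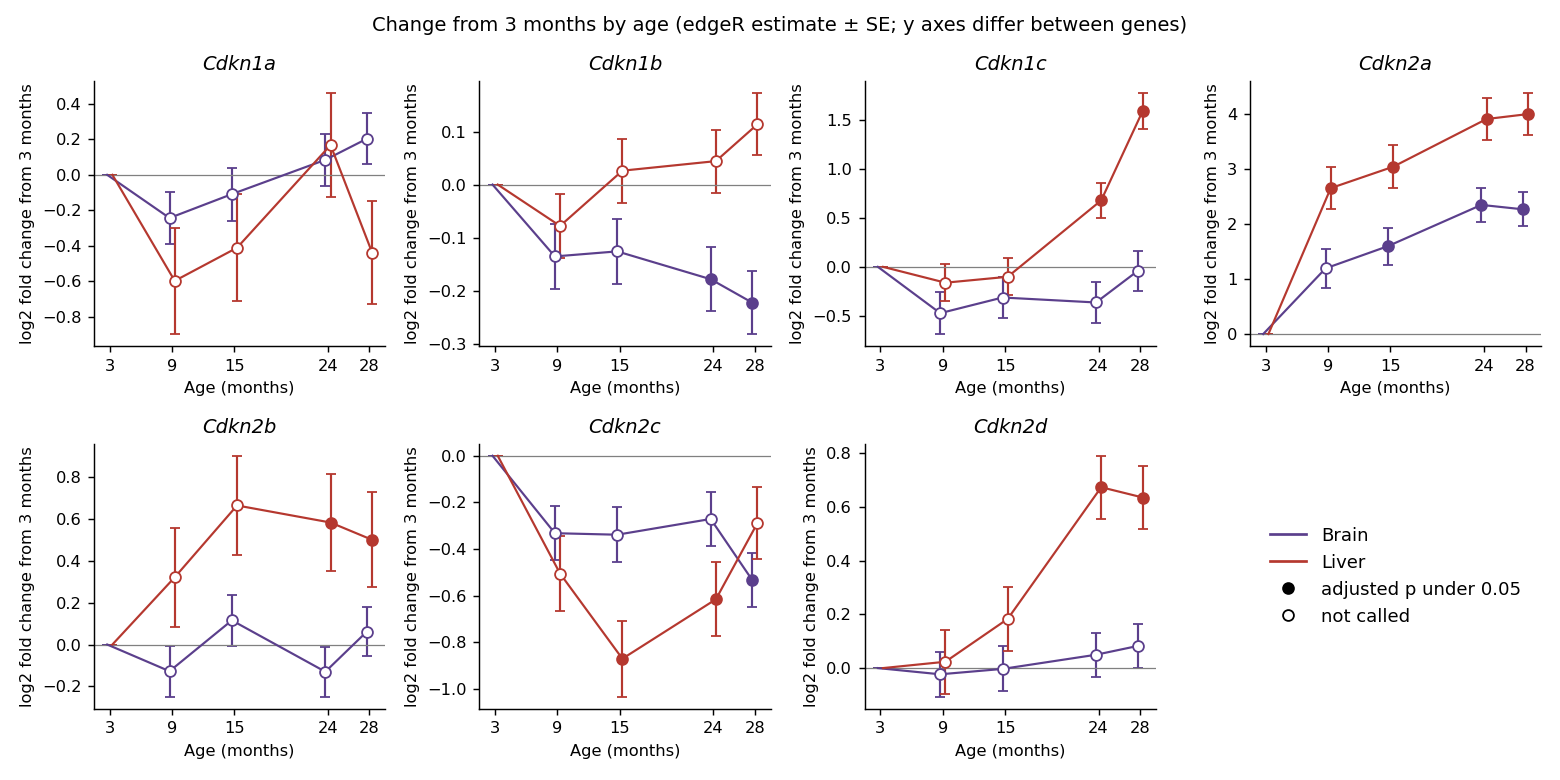
Log2 fold change against 3 months of each inhibitor at 9, 15, 24 and 28 months in brain and liver, with bars of 1 SE, filled points for an adjusted p under 0.05, open points otherwise, and axes that differ between genes. Liver Cdkn2a reaches 3.99, liver Cdkn1c 1.60 and brain Cdkn2a 2.26 at 28 months, and liver Cdkn2c is at -0.87 at 15 months.

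Among the Cip/Kip members, Cdkn1c changed most in liver at 28 against 3 months, but not in brain. It encodes p57, which is expressed from the maternal allele and is known for restraining growth in the embryo. Liver levels were 0.857, 1.52 and 2.57 CPM (lowest, median and highest) at 3 months, 0.758, 1.54 and 1.87 at 9 months and 0.849, 1.59 and 2.23 at 15 months. They were 1.24, 2.29 and 7.39 CPM at 24 months and 1.71, 4.14 and 10.9 at 28 months. The first 3 ages lay close in median and range, 5 of 17 livers of 24 months lay above the highest of 3 months, and 16 of 18 did at 28 months. Cdkn1c rose by 0.68 ± 0.18 at 24 months (edgeR, adjusted p = 0.00126) and 1.60 ± 0.18 at 28 months (edgeR, adjusted p = 7.7e-12), a fitted ratio of 3.03. Within preps the change at 28 months was 1.89, 1.61 and 1.33, called in each, and that at 24 months was 1.17, 0.63 and 0.31, called in prep 1 alone.

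Liver Cdkn1c was also the 1 member called from 24 to 28 months, where 15.3% of all genes were called and 6.18% were higher, at 0.92 ± 0.17 (edgeR, adjusted p = 7.7e-05), with 0.72, 0.98 and 1.02 within preps, of which the third was called. It rose from 15 to 24 months as well, by 0.78 ± 0.18 (edgeR, adjusted p = 0.000598), with 1.00, 0.44 and 1.19 within preps, of which the third was called. Genes driven by the circadian clock had a median sum in liver of 315 CPM at 3 months (245 to 709), 399 at 9 months, 343 at 15 months, 301 at 24 months and 533 at 28 months (263 to 963), with 7 genes higher and 4 lower of 14 at 28 against 3 months. With a score of these genes in the model, the change of Cdkn1c from 24 to 28 months was 0.48 (edgeR, adjusted p = 0.125), no longer a call, and that from 3 to 28 months was 1.22 and remained a call. Over all 13 alternatives run, the change from 3 to 28 months lay between 1.06 and 1.89, a call in each. Hours of tissue collection are not given in the labels.

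Brain Cdkn1c had medians between 3.74 and 4.63 CPM at all 5 ages, with single brains well above these medians at 4 of them. The highest were 3-month mouse 5 (16.8 CPM, next 10.4), 15-month mouse 14 (14.9, next 5.51), 24-month mouse 8 (12.0, next 5.67) and 28-month mouse 12 (15.6, next 10.6), while at 9 months the highest brain had 6.27. These 4 brains held 6590.3, 4811, 4492 and 5437 CPM of choroid plexus genes, where the medians of all ages lay between 95.4 and 191 CPM and the brain with the most Cdkn1c at 9 months held 242. Ttr is 1 of the 9 genes of that list and can make up most of such a sum. Over all brains the hepatocyte markers, which include Ttr, reached 5932 CPM with it and 93.2 CPM without it. How far choroid plexus tissue sets the Cdkn1c level was not tested. The change of Cdkn1c at 28 months was -0.04 ± 0.21 (95% interval -0.45 to 0.36; edgeR, adjusted p = 0.898), and it changed sign without 3-month mouse 5 (0.13), 3-month mouse 15 or 28-month mouse 10. Of the choroid plexus list, 0 of 9 genes were called at 28 months by edgeR.

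**Figure D3:**
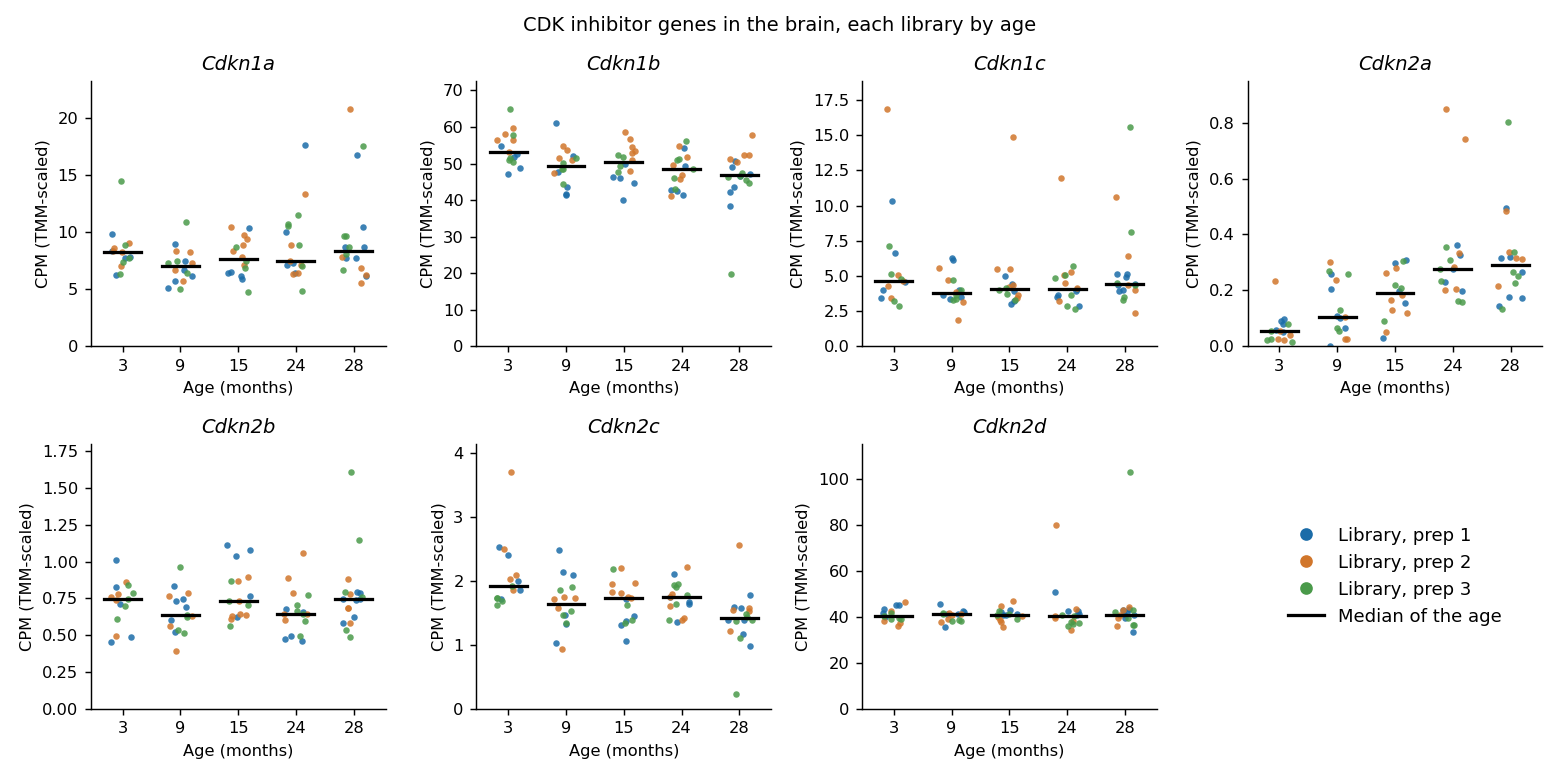
CPM (linear axes from 0, one scale per gene) of the 7 inhibitors in each brain library by age in months, with 1 point per mouse, coloured by prep, and a black line at the median of each age. The Cdkn2a medians go from 0.0526 to 0.289, those of Cdkn2d lie between 40.3 and 41.2 with single libraries at 79.9 and 103, and the highest points of Cdkn1c lie between 12.0 and 16.8 at 4 of the 5 ages.

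Cdkn1b encodes p27, the inhibitor abundant in resting and differentiated cells. Brain levels were 47.1, 53.3 and 64.8 CPM (lowest, median and highest) at 3 months, 41.4, 49.3 and 61.0 at 9 months and 40.1, 50.4 and 58.7 at 15 months. They were 41.2, 48.5 and 56.2 CPM at 24 months and 19.8, 46.9 and 57.8 at 28 months. The decline was small against a broad overlap, with 8 of 17 brains of 24 months and 9 of 18 of 28 months below the lowest brain of 3 months. Brain Cdkn1b fell by 0.18 ± 0.06 on the log2 scale at 24 months (edgeR, adjusted p = 0.0418). That call was lost without any of 20 of the 82 libraries, with no filter on low counts, with no prep term and in each single prep. The change itself stayed between -0.20 and -0.15 with 1 library left out, and between -0.23 and -0.14 over the 13 alternatives. At 28 months the fall was 0.22 ± 0.06 (edgeR, adjusted p = 0.00286), a call kept in each of 82 refits with 1 library left out. Within preps the change at 28 months was -0.17, -0.10 and -0.40, and none of these passed the threshold on its own. Without the 2 libraries that stood apart it was -0.18 (edgeR, adjusted p = 0.000516).

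Liver Cdkn1b did not share that decline: its medians were 30.5, 28.1, 30.6, 29.9 and 31.4 CPM in order of age, and all ages overlapped between 25.1 and 34.0 CPM. The change at 28 months was 0.11 ± 0.06 (95% interval -0.0015 to 0.23; edgeR, adjusted p = 0.0855), which missed the threshold and was called without 3-month mouse 4, 7 or 15 (0.14 without mouse 7). With either clock score in the model the change was -0.00347 or -0.025. With all ages tested together, 5 members differed by age in liver, Cdkn1b among them (edgeR, adjusted p = 0.0445), where 71.5% of all genes did. In brain 3 members did, Cdkn1b (edgeR, adjusted p = 0.0329), Cdkn2a (adjusted p = 5.9e-09) and Cdkn2c (adjusted p = 0.00428), where 20.6% of all genes did.

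Cdkn1a encodes p21, a classic target of p53. Its liver levels were 4.23, 21.9 and 69.8 CPM (lowest, median and highest) at 3 months, 6.12, 14.4 and 39.6 at 9 months and 8.39, 16.5 and 38.5 at 15 months. At 24 months it was 8.55, 25.3 and 59.7 CPM and at 28 months 3.80, 19.99 and 53.5. The ranges of all ages overlapped widely. The change at 28 months was -0.44 ± 0.29 (95% interval -1.01 to 0.13; edgeR, adjusted p = 0.183), and -0.28 without 3-month mouse 10. The livers with the most Cdkn1a at 3 and 9 months, mice 10 and 13, held the highest sums of glucocorticoid-response genes of their ages, 2208 and 1846 CPM. Those of 24 and 28 months, mice 8 and 6, held 4684 and 3485 CPM (medians 1428 and 2408), and that of 15 months, mouse 10, held 1080 (median 1365). In brain the medians lay between 6.99 and 8.35 CPM, and the change at 28 months was 0.20 ± 0.14 (95% interval -0.08 to 0.49; edgeR, adjusted p = 0.293). Without 28-month mouse 17 it was 0.094, and with the signed clock score in the model -0.028. The highest brains, 24-month mouse 5 (17.6 CPM) and 28-month mouse 17 (20.7), held 899 and 922 CPM of glucocorticoid-response genes (age medians 558 and 670). At 28 against 3 months 8 of 11 glucocorticoid-response genes rose in brain and 0 fell (median 0.35), where 28.3% of all genes were called. In liver 7 of 11 rose and 2 fell (median 1.15), where 61.9% of all genes were called. The part of that response in Cdkn1a was not tested in either tissue.

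Between neighbouring ages the calls were liver Cdkn2a from 3 to 9 months, those of liver from 15 to 24 months, the 3 members given above (Cdkn1c, Cdkn2a and Cdkn2d, all higher), and liver Cdkn1c from 24 to 28 months. From 9 to 15 months 0 of 7 were called in either tissue by edgeR, DESeq2 or limma-voom, with 1 member in each under an unadjusted p of 0.05, where 0% of brain genes and 0.0514% of liver genes were called. From 15 to 24 months 0 of 7 were called in brain by the same 3 tools, with 2 under an unadjusted p of 0.05, where 0.732% of all genes were called. In brain at 9 against 3 months 0 of 7 were called by edgeR and DESeq2 and 2 by limma-voom, with 4 under an unadjusted p of 0.05, where 0.315% of all genes were called by edgeR and 2.62% by limma-voom. In liver at 24 against 3 months 4 members were higher and 1 lower, where 49% of all genes were called, 25% higher and 24% lower. The comparisons with 3 months share the same control mice.

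The tissues differed in the age change of 4 members. In a joint model of 14035 genes, the change from 3 to 28 months was lower in brain than in liver by 1.68 ± 0.28 (log2) for Cdkn1c (edgeR, adjusted p = 1.4e-07), by 0.37 ± 0.08 for Cdkn1b (edgeR, adjusted p = 9.6e-05) and by 0.59 ± 0.14 for Cdkn2d (edgeR, adjusted p = 0.000138). It was lower by 1.78 ± 0.59 for Cdkn2a (edgeR, adjusted p = 0.00778), a gene near the floor in both tissues at 3 months. These 4 of 7 stand beside 49.2% of all genes called, a share of the same order. Cdkn1a (0.60 ± 0.33, edgeR adjusted p = 0.124), Cdkn2b (-0.47 ± 0.25, adjusted p = 0.109) and Cdkn2c (-0.28 ± 0.19, adjusted p = 0.231) missed the threshold, which does not show that they changed alike. Over all 5 ages together 4 members again differed between the tissues, Cdkn1b, Cdkn1c, Cdkn2c (edgeR, adjusted p = 0.00323) and Cdkn2d, but not Cdkn2a (adjusted p = 0.0906), where 52.9% of all genes did. Within preps 1, 2 and 3 the difference at 28 months was -2.24, -1.93 and -0.89 for Cdkn1c, -0.21, -0.21 and -0.64 for Cdkn1b, -0.72, -0.64 and -0.38 for Cdkn2d, and -2.79, -1.21 and -1.12 for Cdkn2a. All 12 are below 0, and 4 pass the threshold on their own, none of them for Cdkn2a. With the mouse as a block the same 4 members were called at 28 months.

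The level of most members also separated the tissues, while Cdkn2b was not called at 3 months (0.34, edgeR adjusted p = 0.075) or at 28 months (-0.13, adjusted p = 0.46). At 3 months Cdkn2d was higher in brain by 3.47 (log2), Cdkn1c by 1.22 and Cdkn1b by 0.28, and Cdkn1a was lower in brain by 2.25, Cdkn2c by 1.85 and Cdkn2a by 1.38, 6 of 7 members called where 90.1% of all genes were. At 28 months only Cdkn2d was called higher in brain, by 2.88, and 4 members lower: Cdkn2a (-3.16), Cdkn2c (-2.12), Cdkn1a (-1.65) and Cdkn1c (-0.47), where 90.4% of all genes were called. In this fit Cdkn1c had thus changed sides, from more in brain at 3 months to more in liver at 28 months. Such levels depend on the scaling between tissues. With CPM scaled within each tissue, the Cdkn1c median at 28 months was 4.39 in brain and 4.14 in liver. Cdkn1b, at -0.10 in brain against liver, was not called at 28 months. It was called under both alternatives run, RLE scaling (-0.17, edgeR adjusted p = 0.00239) and no filter on low counts (-0.18, adjusted p = 0.00779). With CPM scaled within each tissue, the Cdkn1b median at 28 months was 46.9 in brain and 31.4 in liver. Its direction at 28 months thus depends on the scaling.

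**Figure D4:**
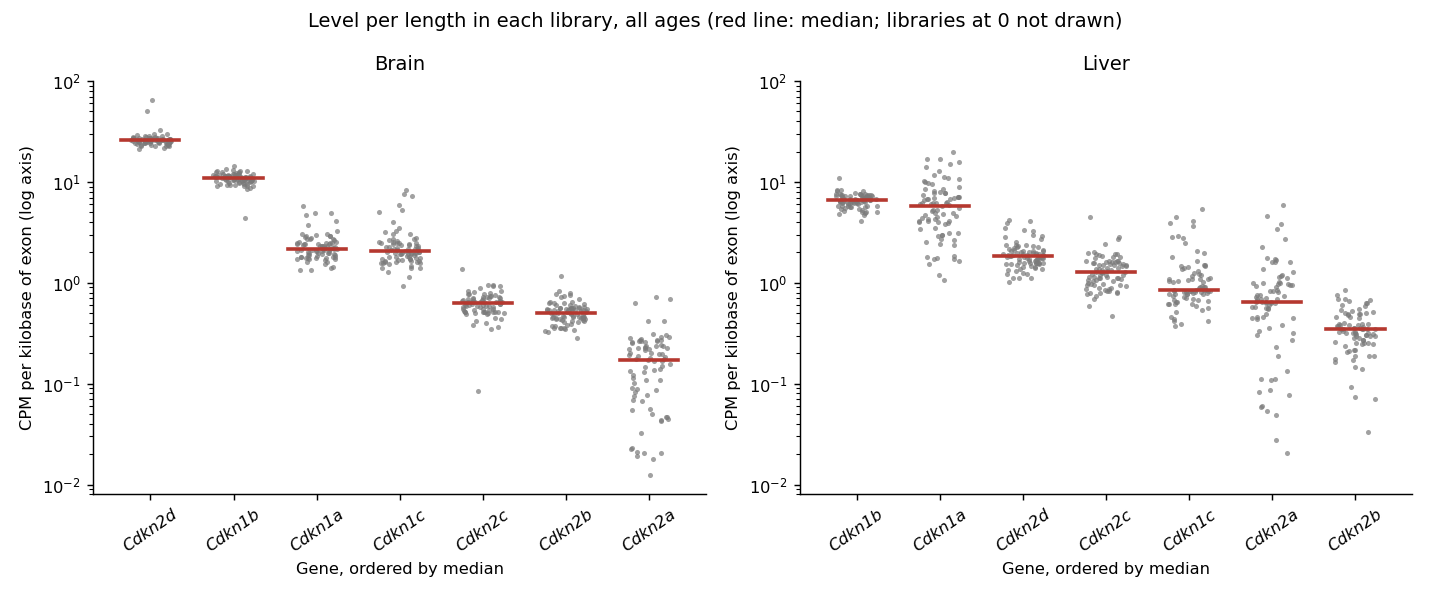
CPM per kilobase of exon (log axis) of each inhibitor in every brain and liver library of all ages, ordered by the median, which is the red line (libraries at 0 are not drawn). Cdkn2d leads in brain at 26.0 and Cdkn1b in liver at 6.61, and Cdkn2a is last in brain at 0.174.

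Per kilobase of exon, and over all libraries of a tissue, the brain order of median levels was Cdkn2d (26.0 CPM per kb), Cdkn1b (11.0), Cdkn1a (2.18), Cdkn1c (2.05), Cdkn2c (0.632), Cdkn2b (0.507) and Cdkn2a (0.174). The neighbours Cdkn1a and Cdkn1c were not separated, since Cdkn1a was the higher in 49 of 82 brains, and Cdkn2c was above Cdkn2b in 63 of 82. Each other step of the brain order held in all 82 libraries. In liver the order was Cdkn1b (6.61 CPM per kb), Cdkn1a (5.79), Cdkn2d (1.84), Cdkn2c (1.27), Cdkn1c (0.849), Cdkn2a (0.652) and Cdkn2b (0.347). No step of the liver order held in all libraries: Cdkn1b was above Cdkn1a in 46 of 83, Cdkn1a above Cdkn2d in 75, Cdkn2d above Cdkn2c in 64, Cdkn2c above Cdkn1c in 53, Cdkn1c above Cdkn2a in 59 and Cdkn2a above Cdkn2b in 65. The order also moved with age: at 3 months the liver median of Cdkn2a (0.0689) was below that of Cdkn2b (0.271) and that of Cdkn2c (1.83) above that of Cdkn2d (1.56). At 15 months liver Cdkn2a (0.804) was above Cdkn1c (0.778), and at 24 months Cdkn1a (7.13) was above Cdkn1b (6.56). Liver Cdkn1c was above Cdkn2c at 24 months (1.125 against 0.957) and at 28 months (2.03 against 1.49). In brain Cdkn2b (0.535) was just above Cdkn2c (0.526) at 28 months. Over all ages the brain was led by p19Ink4d and p27, and the liver by p27 and p21.

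The lists around the inhibitors are given at 28 against 3 months and stand beside the share of all genes called, 28.3% in brain (16.3% higher and 12% lower) and 61.9% in liver (31.9% higher). In liver, the share called was below 61.9% in both arms of kinases and cyclins and in the lists of p53, Polycomb, p27 turnover and transforming growth factor beta, and above it in those of E2F factors, S phase and mitosis, and secreted factors. In brain it was above 28.3% in the lists of E2F factors, Polycomb and secreted factors and below it in the other lists just named. Of the 8 genes of the Cdk4 and Cdk6 arm (the D cyclins, their kinases and the retinoblastoma family), 1 fell in brain, Ccnd2 (cyclin D2, median 104 to 82.2 CPM, -0.35 ± 0.07), and 3 rose in liver, among them Ccnd1 (cyclin D1, 45.7 to 95.04 CPM, 0.86 ± 0.21) and Rbl1 (p107, 0.72). Of the Cdk2 and Cdk1 arm, 1 of 11 rose in brain, Cdk2 (0.26), and 2 fell, Ccnb1 (cyclin B1, -1.81 ± 0.25) and Cdk1 (-0.80), while in liver 4 of 9 rose, led by Cdc25b (1.56) and Ccne1 (cyclin E1, 1.19). The list medians were -0.08 and 0.04 in brain and 0.16 and 0.69 in liver, beside 0.01 over all genes in each tissue.

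Downstream, the E2F factors split in liver, with E2f2 (0.79) and E2f7 (0.68) among 3 of 10 higher and E2f8 (-1.46) and E2f6 (-0.48) among 4 lower (median -0.07), and in brain 3 of 10 fell, among them E2f8 (-0.80) and E2f4 (-0.14; median -0.10). Genes of S phase and mitosis rose in 16 of 22 cases in liver, none lower (median 0.89), with Mki67 (1.62), the antigen of cycling cells, and Bub1 (1.55), a mitotic checkpoint kinase, at the top. In brain 4 of 20 fell, among them Top2a (-1.66) and Mki67 (-1.22), and 1 rose, Cdt1 (0.34; median -0.02). The immune cell markers given with Cdkn2a were also higher in these livers, and their part in the S phase and mitosis genes was not tested.

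Upstream, 11 of 24 genes of p53 and its targets rose in liver and 2 fell (median 0.21), with Eda2r (1.75), a receptor of the tumour necrosis factor family, and Pmaip1 (Noxa, 1.67) highest and Perp (-0.46) and Plk2 (-0.28) lowest. In brain 3 of 23 rose, among them the death receptor Fas (0.63 ± 0.14) and Eda2r (0.59), and 2 fell, Ccng1 and Zmat3 (both -0.16; median -0.02). Of 17 Polycomb genes, whose products hold the Ink4 locus silent, 2 rose in brain, Cbx7 (0.24) and Pcgf2 (0.23), and 5 fell, among them Cbx2 (-0.60) and Cbx8 (-0.57). In liver 4 rose, among them Cbx7 (0.75) and Cbx6 (0.67), and 3 fell, among them Pcgf2 (-0.50) and Cbx8 (-0.27), with list medians of -0.07 in brain and 0.00 in liver. Cbx8 fell and Cbx7 rose in both tissues.

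Of the genes that set the turnover and transcription of p27, 1 of 8 fell in brain and 1 of 7 in liver, in both cases Foxo4 (-0.22 and -0.20), a forkhead factor. Of 9 genes of transforming growth factor beta signalling, 1 rose in brain, Tgfb1 (0.25), and 4 in liver, led by Tgfb1 (0.87) and Tgfbr2 (0.60; median 0.31). Of the factors that senescent cells are known to secrete, 9 of 15 tested rose in brain (median 0.48), led by Ccl8 (2.97) and Ccl3 (1.82), and 17 of 23 in liver (median 1.08), led by Ccl8 (4.36) and Ccl5 (3.00), with none lower in either. These chemokines are also made by immune cells, whose marker sums in liver are given above. In brain, macrophage and microglia genes were higher in 9 of 10 cases (median change 0.59; summed level 301 to 392 CPM at 3 months and 313 to 808 at 28 months) and neutrophil genes in 6 of 6 (2.86; 7.06 to 13.9 and 12.5 to 52.3 CPM). Their part in the secreted factors was not tested. Of other genes with a Cdkn symbol, Cdkn3, a phosphatase that acts on Cdk2, rose in liver (1.17), and Cdkn2aipnl rose in both (0.28 in brain, 0.35 in liver).

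**Figure D5:**
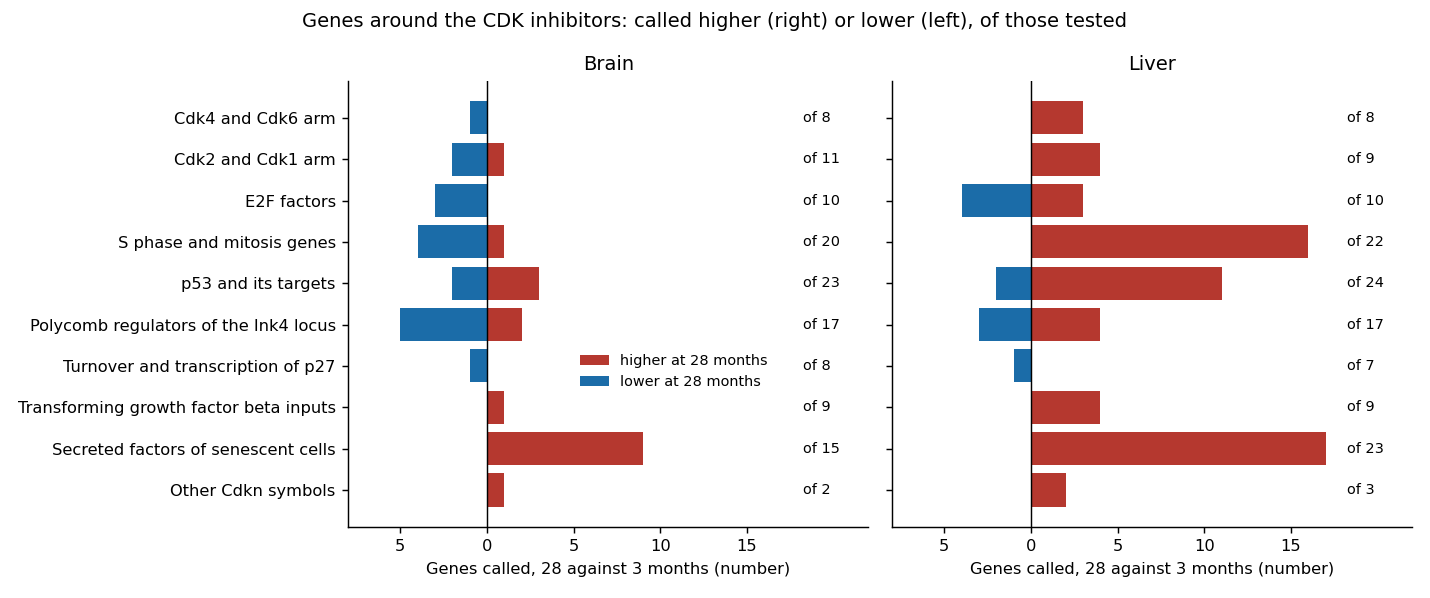
Number of genes called higher (bars to the right) or lower (bars to the left) at 28 against 3 months in each list around the inhibitors, brain and liver side by side, with the number tested at the right. The longest bars are those of the secreted factors (17 of 23) and of S phase and mitosis (16 of 22) in liver, against 9 of 15 and 1 of 20 in brain.

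The genes whose levels followed a member most closely over the libraries of a tissue were ranked by Pearson r, and some of them are given here. After removing prep means, liver Cdkn1c went with 1810010H24Rik (r = 0.863 over 83 libraries) and Aprt (0.842), and liver Cdkn2d with Gnai2 (0.843), Cd63 (0.838) and Tapbpl (0.831). Liver Cdkn2a went with Hsf2bp (0.809) and the immunoglobulin genes Ighm (0.799) and Igkc (0.798), which mark B and plasma cells. With age removed as well, these 3 values fell to 0.284, 0.490 and 0.460, and the genes closest to liver Cdkn2a were then Adgre5 (0.718), Lyn (0.662) and Hpse (0.652). For the partners of liver Cdkn1c and Cdkn2d named here, removing age gave 0.632 to 0.732. Brain Cdkn1c went with Pcolce (0.892 over 82 libraries), Sema3b (0.884) and Col8a1 (0.880), and brain Cdkn1a with Map3k6 (0.736), Klf15 (0.689) and Arl4d (0.666). Brain Cdkn1b, Cdkn2c and Cdkn2d had partners that leaned on the 2 libraries that stood apart. Without them Cdkn2c went from 0.796 to 0.599 with Golga7, from 0.770 to 0.552 with Ybx1 and from 0.769 to 0.579 with Elovl5. The 3 partners of Cdkn1b (Rmnd5a, Creb1 and Klhl28) went from 0.902 to 0.917 down to 0.774 to 0.824, and those of Cdkn2d (Pmm1, Bod1 and Mrps7) from 0.946 to 0.957 down to 0.761 to 0.831. Libraries of one age share that age, and genes of one library share its depth and makeup, so these values are a description.

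A mouse with more of an inhibitor in its brain did not have detectably more in its liver. Over 82 mice, with age and prep removed, 0 of 7 members passed adjustment, and Cdkn2c came nearest (Pearson r = 0.275, permutation p = 0.00754, adjusted p = 0.0528, Spearman rho = 0.191 with permutation p = 0.0842). Without the 2 mice farthest from the median its r was 0.159. Within preps it was 0.199, 0.192 and 0.298. For Cdkn2a, which rose in both tissues, r was 0.0975 (permutation p = 0.342, rho = 0.0977), and for the other 5 members r lay between -0.163 and 0.195.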

How the data were processed

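The authors deposited 1 table per tissue of raw counts per Ensembl gene, whole numbers that were not normalized; per the submitters' processing notes the tools included cutadapt 2.8, HISAT2 2.1.0, SAMtools 1.9 and featureCounts of Subread 2.0.1 with GRCm38.p6. The annotation release, the strand setting and the treatment of reads with several matches are not given in the sources used here. Per the labels, RNA was extracted with QIAzol and chloroform, enriched for polyadenylated RNA, made into libraries with a stranded kit and read as pairs. Symbols matched 55144 of 55471 identifiers, and 0 columns were left unused. One mouse, number 6 of 3 months, enters with its liver alone; its brain is not used here.

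Each tissue was fitted with edgeR 4.0.16 in R 4.3.3 (filterByExpr by age, TMM, quasi-likelihood test with age and prep, two-sided, Benjamini-Hochberg adjustment over all genes tested, threshold 0.05). CPM use TMM library sizes, and SE is the fold change over the root of F. Tissues were compared in 1 joint model, and brain with liver of a mouse by 100000 permutations within ages. Alternatives used limma 3.58.1 and DESeq2 1.42.0, RLE scaling, no filter, other terms and fewer libraries. No pair of libraries of an age agreed within counting noise (lowest mean squared residual 5.23 in brain and 8.31 in liver, where 1 is counting noise). The code was tested on simulated data. Coordinates are from GENCODE M21, promoters from RefSeq (GRCm38), which matched 6 of 7 members. Replicate numbers name different mice at each age and pair brain with liver of 1 mouse.

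All 7 members are described. Of each gene list, up to 2 genes called with the highest and up to 2 with the lowest change at 28 months are named; the 3 genes most like a member are those of highest Pearson r among genes of mean 1 CPM or more, and a selection of them is given. The members and lists were chosen with earlier results of these data known.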

Additional observations from a re-analysis of the deposited data

Results flagged for a closer look

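The age change of 4 members differed between brain and liver by a test of the difference itself, the tissue by age term of the joint edgeR model for 28 against 3 months. The brain change minus the liver change was -0.375 (log2) for Cdkn1b (SE 0.0845, adjusted p = 9.56e-05), with a call in brain and none in liver. It was -1.68 for Cdkn1c, called in liver and not in brain, -1.78 for Cdkn2a, called in both, and -0.594 for Cdkn2d, called in liver and not in brain. With the mouse as a block these differences were -0.38, -1.54, -1.62 and -0.60. No age group holds 10 or fewer libraries, so single libraries were not tested as outliers.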

How the results depend on the processing

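At 28 against 3 months, the calls of Cdkn2a, Cdkn1c and Cdkn2d in liver were kept under every alternative run, and those of Cdkn2a, Cdkn1b and Cdkn2c in brain under all alternatives that tested them but single preps (brain Cdkn2a has no value with only the 2 ages, where the filter removed it). Alternatives with clock terms signed by direction, and those without the 2 libraries least like the others, were chosen after seeing the data. The cause of the shifts below was not tested, apart from single preps, which hold fewer mice.

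Number of members called, with the share of all genes called in the same fit in parentheses. With limma-voom weights it was 2 in brain at 9 (2.62%) and at 15 months (3.75%) against 3, 2 in liver at 9 months (2.55%) and 2 in liver at 28 against 24 months (28.9%). Brain at 24 against 3 months gave 1 with no filter (3.89%), with only the 2 ages (12.5%; Cdkn2a was filtered out) and with no prep term (9.71%). Liver at 9 against 3 months gave 2 with DESeq2 (5.64%), only the 2 ages (2.4%), no prep term (4.58%) and without the 2 least-like libraries (5.18%). In single preps (1, 2 and 3) brain gave 0, 0 and 0 at 15 months (0.0911%, 0.0586% and 0%), 0, 1 and 1 at 24 months (1.19%, 0.597% and 0.486%), and 0 in prep 2 (1.96%) and 1 in prep 3 (6.36%) at 28 months. Liver gave 0, 0 and 0 at 9 months (0.0773%, 0.0764% and 0.0188%), 0 in preps 1 and 3 at 15 months (0.373% and 0.0878%), 3 in prep 1 (5.83%) and 2 in prep 3 (33.4%) at 24 months, 0, 0 and 1 at 24 against 15 months (0.0193%, 16.7% and 8.09%) and 0 in prep 2 (0%) at 28 against 24 months. The tissue by age count was 2, 1 and 1, with 3825, 891 and 4407 of 14035 genes called. Either clock term gave 0 in liver at 28 against 24 months (5.7% and 1.19%; Cdkn1c 0.48 and 0.42).

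Brain log2 changes at 28 months. Single preps gave -0.17, -0.10 and -0.40 for Cdkn1b, 2.24 (prep 2) for Cdkn2a, -0.52 and -0.49 (preps 2 and 3) for Cdkn2c, 0.49 (prep 3) for Cdkn1c, -0.0059 (prep 2) for Cdkn2b and -0.095 (prep 1) for Cdkn2d. Cdkn2d was -0.019 with limma-voom and -0.032 without the least-like libraries, and the signed clock term gave 0.043 for Cdkn1c and -0.028 for Cdkn1a. In liver, Cdkn2b was 0.50 with RLE, 0.47 with no filter, 0.43 with limma-voom, 0.49 with only the 2 ages and 0.23, 0.67 and 0.55 in single preps, none a call. Liver Cdkn1b was 0.13 and called with limma-voom, and -0.00347 and -0.025 with the clock terms; Cdkn2c was called with limma-voom (-0.31), only the 2 ages (-0.28) and without the least-like libraries (-0.38); Cdkn1a was 0.25 with the signed clock term.

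The replicate block, which joins mice of different ages that share only a number, gave 2 calls in liver at 9 against 3 months (4.11%) and at 28 against 24 months (13.7%) and called liver Cdkn1b (0.13, adjusted p = 0.0310). Same-numbered libraries did not deviate together (mean r = 0.0135 in brain, -0.00653 in liver). With the mouse as a block, no call changed for the tissue by age term at 28 against 3 months; the other comparisons of brain with liver were not run with that block.

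The relation of brain and liver within mice changed sign in single preps: Cdkn1a -0.156 (prep 2), Cdkn1b 0.0773 (prep 1), Cdkn1c 0.0149 and 0.0934 (preps 2 and 3), Cdkn2a -0.0908 (prep 3), Cdkn2b 0.0281 (prep 3) and Cdkn2d -0.303 and -0.169 (preps 1 and 3).

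Leaving out each library in turn gave 1 to 2 calls in brain at 24 months and 3 in each refit at 28 months, and 4 to 5 in liver at 24 months and 3 to 5 at 28 months. Brain Cdkn1c ranged from -0.22 to 0.13 and Cdkn2d from -0.030 (without 28-month mouse 15) to 0.11; liver Cdkn1b from 0.10 to 0.14, Cdkn2b from 0.40 to 0.61 and Cdkn2c from -0.35 to -0.23. Depth limits Cdkn2a at 3 months, where 12 brains and 11 livers held 3 counts or fewer.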
